A study of Mus musculus with 10 samples.

Results

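The 6 genes described here encode the chains of the cartilage fibril collagens: *Col2a1* for collagen II, *Col9a1*, *Col9a2* and *Col9a3* for collagen IX, and *Col11a1* and *Col11a2* for collagen XI. They were chosen by name for their shared place in the fibril, with earlier results of these data known, and are 6 of the 29183 genes that both deposited count tables list. The values are counts of unique molecular identifiers (UMIs, tags that let PCR copies of a molecule be counted once) in single cells sorted into 96-well plates. *Grem1-TdT* mice carry a *Rosa-TdTomato* reporter and a tamoxifen-inducible *Grem1-creERT* driver, were fed tamoxifen chow for 2 weeks from 5 to 6 weeks of age, and gave cells from articular cartilage (AC) and growth plate (GP), which were excised and digested separately. *Lepr-TdT* mice, of paired age, carry the same reporter with the constitutive *Lepr-cre* driver and gave cells negative for CD45, Ter119 and CD31 from whole crushed hind limb bones. All were C57BL/6 mice, and the reporter marks cells in which the driver was active together with their progeny. Cells of several mice were grouped, and the plates hold no record here of animal or tissue, so a p-value over plates measures the spread between plates, which may be technical. Lineage, tissue, digestion and gate differ together between the mouse lines and cannot be told apart.

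Collagen II is the main fibrillar collagen of cartilage. Its fibrils are copolymers in which collagen XI lies mostly within and is known to limit fibril diameter, while collagen IX sits on the surface and links the fibril to its neighbours and to other matrix molecules. Collagen II is a homotrimer, collagen IX takes a chain from each of its genes, and the third chain of collagen XI is a product of *Col2a1*, so that the same gene supplies collagens II and XI. The superficial layer of articular cartilage and the columns of the growth plate both hold these fibrils.

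The genes lie on separate chromosomes. On GRCm38, the GENCODE annotation places *Col2a1* at chr15:97975602-98004695 on the minus strand and the others on the plus strand: *Col9a1* at chr1:24177610-24252684, *Col9a2* at chr4:121039385-121055322, *Col9a3* at chr2:180597790-180622189, *Col11a1* at chr3:114030540-114220718 and *Col11a2* at chr17:34039437-34066685. The joined exons of a gene span from 3095 bases for *Col9a2* to 12744 bases for *Col11a1*. Exons of no other gene overlap theirs, except for 234 bases of *Col9a3* shared with *Tcfl5* on the opposite strand, and *Tcfl5* was not analysed here in *Grem1*-lineage cells. RefSeq windows of 300 bases around the transcription start, with most of each upstream, were found for 4 of the 6 genes. Those of *Col9a1* and *Col11a1* are printed because these chains fell most and least between the cell groups described below, and *Col9a1* has 2 because it is known to be transcribed from alternative starts, the downstream one giving a shorter chain. Capitals mark GGGCGG on either strand, a motif known to be bound by Sp1. All are on the plus strand of GRCm38.p6, at chr1:24177360-24177659, chr1:24194953-24195252 and chr3:114030290-114030589.
Col9a1 upstream start: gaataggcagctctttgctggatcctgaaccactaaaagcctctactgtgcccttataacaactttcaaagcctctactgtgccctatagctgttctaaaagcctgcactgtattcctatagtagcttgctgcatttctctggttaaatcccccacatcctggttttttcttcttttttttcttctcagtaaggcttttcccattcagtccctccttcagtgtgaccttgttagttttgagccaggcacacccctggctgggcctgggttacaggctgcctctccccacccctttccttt
Col9a1 downstream start: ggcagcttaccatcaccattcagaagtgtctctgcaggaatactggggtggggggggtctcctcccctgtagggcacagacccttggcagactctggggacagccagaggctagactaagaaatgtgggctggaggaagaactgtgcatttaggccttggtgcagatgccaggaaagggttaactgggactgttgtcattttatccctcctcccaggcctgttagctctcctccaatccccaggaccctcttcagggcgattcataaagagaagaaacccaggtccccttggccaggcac
Col11a1: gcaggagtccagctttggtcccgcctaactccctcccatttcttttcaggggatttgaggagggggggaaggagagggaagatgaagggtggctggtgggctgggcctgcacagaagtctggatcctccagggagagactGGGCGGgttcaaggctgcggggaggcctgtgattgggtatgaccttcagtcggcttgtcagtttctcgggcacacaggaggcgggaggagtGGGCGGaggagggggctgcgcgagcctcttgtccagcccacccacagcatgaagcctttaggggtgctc

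GGGCGG occurred at 2 places in the *Col11a1* window and in neither *Col9a1* window. The *Col9a2* window held 3 and the *Col11a2* window 2, and 35.7% of all 32851 RefSeq windows hold at least 1. The GC content was 47.3% and 55.7% in the *Col9a1* windows and 62.3% in that of *Col11a1*. TATAAA, found in 13.6% of all windows, occurred once in that of *Col11a2* and in none of the other 4. Neither ACAAAG nor ACAATG, cores of the motif of SOX proteins, occurred on either strand in any of these windows, against 18.7% and 12.6% of all windows. These letters were not found in these windows, which says nothing of the enhancers of these genes. The counts do not separate the forms of *Col9a1*.

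Of 768 *Grem1-TdT* wells on 8 plates (1, 2 and 4 to 9) and 162 *Lepr-TdT* wells on 2 plates, 684 and 160 were kept as cells because they held 350 or more detected genes. They held a median of 1472.5 and 1222 UMIs. Cell type was checked by marker genes. Chondrocyte markers (*Acan*, *Cnmd*, *Cytl1*, *3110079O15Rik*, *Comp* and *Chad*) were all present in the *Grem1*-lineage cells, and each also had UMIs in *Lepr*-lineage cells. They summed to 56.11 and 5417 CPM (UMIs scaled to a common library total) on the *Lepr*-lineage plates. In the *Grem1*-lineage sums described next they reached at least 68169 CPM. The marrow stromal markers of the *Lepr*-lineage plates summed to 22398 and 30607 CPM, against at most 100.5 CPM in the *Grem1*-lineage sums. In these sums, haematopoietic markers reached 4272 CPM and endothelial markers 45.03 CPM. The *Lepr*-lineage plates had 4634 and 6144 CPM of haematopoietic markers, despite the gate, and at most 28.05 CPM of endothelial markers. *Grem1*-lineage cells were split by their own counts into 414 cells in which *Clu*, *Cilp* and *1500015O10Rik* together had more UMIs than *Cnmd* (Clu-led cells) and 270 in which they had not (Cnmd-led cells). The first 3 genes are known from articular cartilage. *Cnmd* encodes chondromodulin, an inhibitor of vessel growth that is abundant in growth plate cartilage. The split is a range and not a cell type: 35 of 684 cells lay less than 5 UMIs from it, 4 of them tied and counted as Cnmd-led. Clu-led cells held a median of 47 UMIs of the 3 genes and 5 of *Cnmd*, and Cnmd-led cells 10.5 and 59.5. The summed UMIs of a plate ranged from 51229 to 78395 for Clu-led cells (43 to 68 cells) and from 57206 to 106289 for Cnmd-led cells (26 to 40 cells), and a Clu-led cell had a median of 1217 UMIs against 2218.5. The same 96 well barcodes recur on all *Grem1-TdT* plates, so a barcode marks the well position and not a shared cell.

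By UMIs among the genes listed, *Col2a1* was the most abundant transcript of Cnmd-led cells and had rank 8 in Clu-led cells. All 6 chains were present in both groups on each plate, and all were lower in Clu-led cells on 8 of 8 plates. In CPM scaled by TMM, edgeR's correction for composition, *Col2a1* in Clu-led cells was 14205 on the lowest plate, 18521 at the median and 34984 on the highest. In Cnmd-led cells it was 64306, 77963 and 102180. The highest Clu-led plate, plate 9, was thus below the lowest Cnmd-led plate. The difference was -1.96 on the log2 scale (SE 0.18, n = 8 plates per group, adjusted p = 2.22e-08, quasi-likelihood test of edgeR, adjusted by Benjamini-Hochberg over 1075 genes).

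Among the chains of collagen IX, *Col9a1* encodes the chain that carries the large globular domain reaching out from the fibril. Its level in Clu-led cells was 530.1 CPM on the lowest plate, 859.3 at the median and 2773 on the highest, against 4745, 5540 and 6816 CPM in Cnmd-led cells. Plate 9 again gave the highest Clu-led value, and the next highest plate had 1088 CPM. *Col9a1* had the largest difference of the 6, -2.39 (SE 0.27, adjusted p = 4.39e-07, edgeR), and without plate 9 it was -2.75. *Col9a2* ranged from 737.2 to 1299 CPM around a median of 820.8 in Clu-led cells and from 2676 to 4068 around 3423 in Cnmd-led cells, a difference of -1.85 (SE 0.16, adjusted p = 1.47e-08, edgeR). *Col9a3* ranged from 1171 to 2840 CPM around 1690 and from 5860 to 9142 around 6903, a difference of -2.04 (SE 0.20, adjusted p = 6.65e-08, edgeR). The groups did not overlap for any chain of collagen IX.

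The chains of collagen XI had the smallest differences of the 6, although that of *Col11a2* was not set apart from that of *Col9a2* in the ratio test described below. *Col11a1* was 2824 CPM on the lowest Clu-led plate, 4295 at the median and 5387 on the highest, against 6687, 10066 and 13164 CPM in Cnmd-led cells. Its difference of -1.27 (SE 0.17, adjusted p = 6.50e-06, edgeR) was the least. *Col11a2* was 1467, 2048 and 4418 CPM in Clu-led cells and 5182, 7326 and 9710 CPM in Cnmd-led cells, with a difference of -1.60 (SE 0.22, adjusted p = 5.45e-06, edgeR). For both chains all Clu-led plates lay below all Cnmd-led plates.

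All 6 chains were called lower in Clu-led cells, where 21.6% of the 1075 genes tested were called in that direction. For all 6, every Clu-led sum lay below every Cnmd-led sum, which held for 4.74% of the genes tested. The groups were drawn from 4 genes counted in the same cells, and a gene that varies with any of these in single cells will differ between them. The p-values measure the spread over plates and not the choice of groups. The median difference over all genes tested was -0.02. Without TMM scaling the differences were larger, from -1.59 for *Col11a1* to -2.72 for *Col9a1*.

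**Figure D1:**
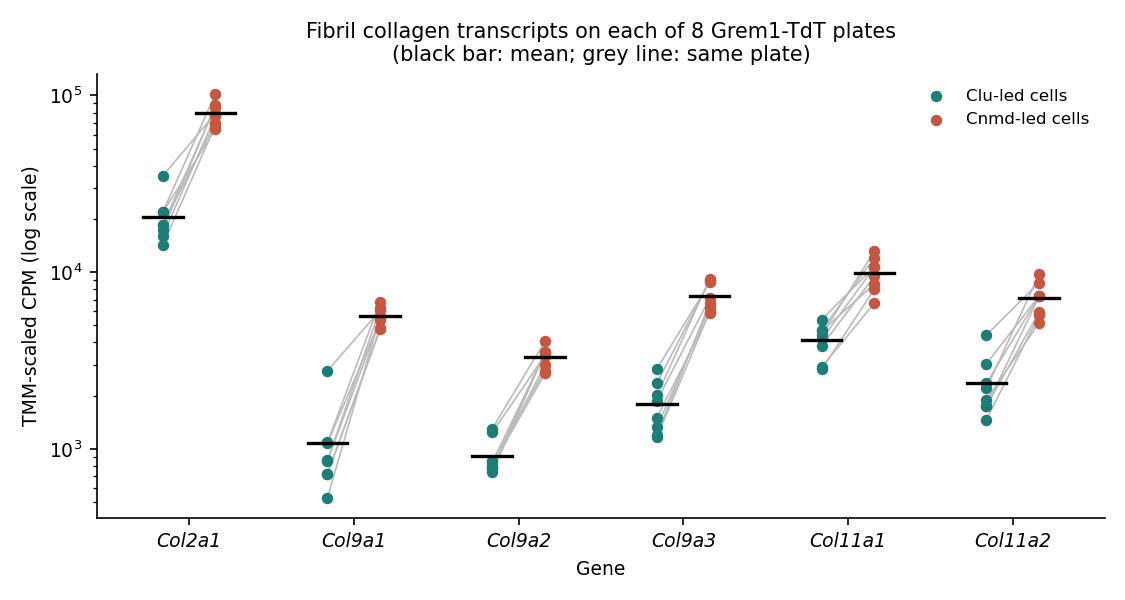
TMM-scaled CPM of each chain (log axis) in the summed Clu-led and Cnmd-led cells of each of the 8 *Grem1-TdT* plates; points are plates, grey lines join the groups of a plate and black bars are means. Every line rises to the right and the groups do not overlap for any chain, with the widest step for *Col9a1* and the narrowest for *Col11a1*.

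A Clu-led sum held on average 26.1% ± 8.7 (SD, n = 8 plates) of the *Col2a1* level of the Cnmd-led sum of its plate. The share was 18.8% ± 11.2 for *Col9a1*, 27.8% ± 5.5 for *Col9a2*, 23.9% ± 4.7 for *Col9a3*, 41.9% ± 7.1 for *Col11a1* and 32.7% ± 9.6 for *Col11a2*. As other cartilage genes, *Acan*, the core protein of aggrecan, was at 49.8% ± 7.2 and *Epyc*, a small proteoglycan known from growth plate cartilage, at 6.7% ± 7.1. *Cnmd*, on which the split was made, was at 22.1% ± 6.4. Other genes taken as growth plate markers did not follow *Cnmd* and *Epyc*. *Col10a1* had a mean of 8001 CPM in Clu-led and 1580 CPM in Cnmd-led sums, and *Fgfr3* 368 and 380 CPM. How much of the *Col2a1* of Clu-led wells is free RNA from other cells was not tested. Wells with fewer than 350 genes, 84 in number and with a median of 501.5 UMIs, all held *Col2a1*. Pooled without the split by cell group, they had 21053 CPM of it without TMM scaling. On that scale the mean was 14362 CPM in Clu-led sums and 69601 CPM in Cnmd-led sums. The 19 *Grem1*-lineage cells in which osteoblast markers took over 2% of UMIs (10 Clu-led and 9 Cnmd-led) also all held *Col2a1*, at a median of 0.906% of UMIs. Without these cells the differences of the 6 chains kept their direction and passed the test.

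Levels of different genes were set against exon length, although a UMI marks a captured molecule and need not grow with transcript length, so that the order below depends on the division. *Col2a1* was first with and without it. It had 2208 ± 697 CPM per kilobase of exon in Clu-led cells and 8589 ± 1356 in Cnmd-led cells (SD, n = 8), and *Col9a3* came next with 464 ± 155 and 1908 ± 360. In Cnmd-led cells *Col9a1* (1115 ± 139), *Col9a2* (1067 ± 150) and *Col11a2* (1042 ± 224) followed, and these neighbours changed places between plates, since the higher mean was the higher value on only 5 of 8 plates for each adjoining pair. *Col11a1* was last with 779 ± 169, below *Col11a2* on 7 of 8 plates. In Clu-led cells *Col11a2* (343 ± 140), *Col11a1* (323 ± 69.8) and *Col9a2* (296 ± 71.8) could not be ordered, with 4 and 5 of 8 plates on the side of the mean, and *Col9a1* was last with 213 ± 140, below *Col9a2* on 7 of 8 plates. Without division by length, *Col11a1* had the second highest level of the 6 in both groups, with means of 4111 and 9929 CPM.

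The mixture of chains therefore differed between the groups. Per 100 *Col2a1* UMIs, Clu-led cells held 21.0 ± 5.5 *Col11a1* UMIs (SD, n = 8; 15.2 to 29.4) and Cnmd-led cells 12.6 ± 2.3 (7.74 to 15.7). The ratio was higher in Clu-led cells on 8 of 8 plates. *Col11a2* stood at 11.5 ± 2.8 and 9.03 ± 1.36, also higher on all 8 plates. *Col9a1* went the other way, with 4.99 ± 1.39 and 7.18 ± 0.73, and was lower in Clu-led cells on 7 of 8 plates. *Col9a2* (4.61 ± 0.84 and 4.18 ± 0.39) and *Col9a3* (8.86 ± 1.94 and 9.31 ± 1.37) did not differ beyond the spread over plates.

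**Figure D2:**
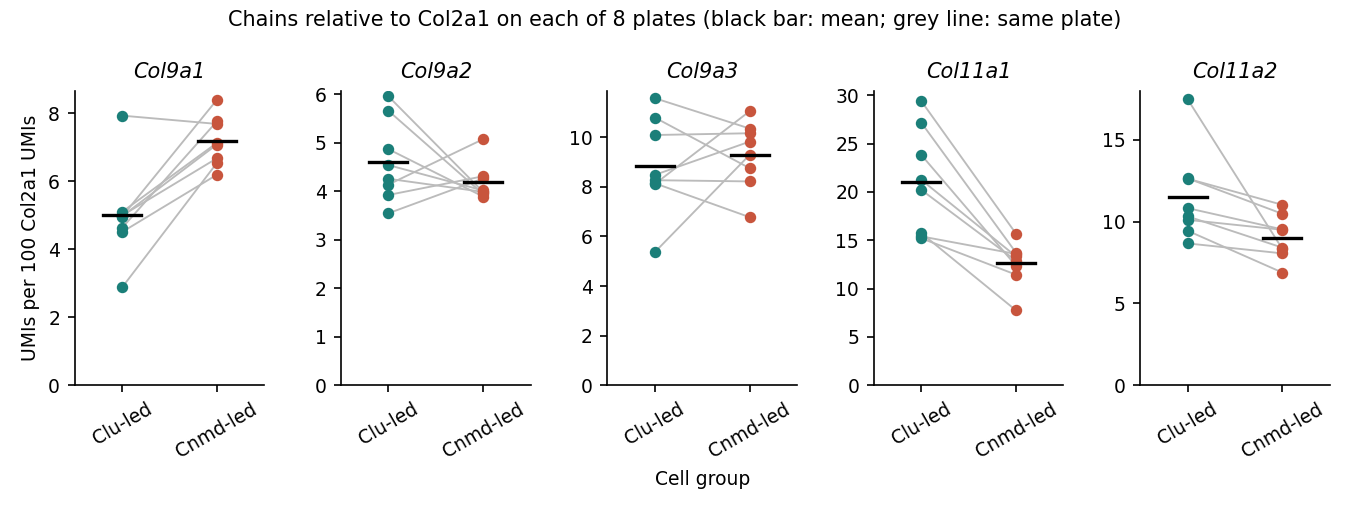
UMIs of each chain per 100 *Col2a1* UMIs in the summed Clu-led and Cnmd-led cells of each of the 8 *Grem1-TdT* plates; grey lines join the groups of a plate, black bars are means and each panel has its own axis from 0. *Col11a1* and *Col11a2* fall from Clu-led to Cnmd-led on all 8 plates, *Col9a1* rises on 7, and *Col9a2* and *Col9a3* have no common direction.

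The 15 ratios between the chains were tested on the log2 scale by a two-sided exact sign-flip permutation test over the 8 plates, whose smallest possible p is 0.00781, with Benjamini-Hochberg adjustment over the 15. The 15 ratios are formed from the same 6 chains and are not independent of each other. At 0.05, 10 passed and 6 of these had the same sign on all 8 plates. Those 6, each with an adjusted p of 0.0195, were the ratios of *Col2a1* to *Col11a1* (-0.72 ± 0.30, SD of the difference over plates) and to *Col11a2* (-0.33 ± 0.32), of *Col9a1* to *Col11a1* (-1.29 ± 0.58) and to *Col11a2* (-0.90 ± 0.51), and of *Col9a2* and *Col9a3* to *Col11a1* (-0.60 ± 0.28 and -0.81 ± 0.37). In each the chain of collagen XI was the one relatively higher in Clu-led cells. The widest shift in these ratios of sums was that between *Col9a1* and *Col11a1*, from 0.578 *Col9a1* UMIs per *Col11a1* UMI in Cnmd-led cells to 0.236 in Clu-led cells (geometric means). The size of that shift depended on the summary: as the median over single cells holding both chains, it was -0.42 and still passed the exact test.

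The other 4 that passed had 1 or 2 plates of opposite sign. The ratios of *Col2a1* to *Col9a1* (0.57 ± 0.35) and of *Col9a1* to *Col9a2* (-0.69 ± 0.50) both had an adjusted p of 0.0293 in the exact test. Those of *Col9a3* to *Col11a2* (-0.42 ± 0.39) and of *Col11a1* to *Col11a2* (0.39 ± 0.32) had one of 0.0469. With 1 plate left out these 4 differences ranged from 0.48 to 0.65, from -0.83 to -0.59, from -0.52 to -0.35 and from 0.34 to 0.46. Each was then called in 1 case of 8, but with 7 plates the smallest possible p is 0.0156, so the calls over 7 plates say little of stability. Within collagen IX, *Col9a2* to *Col9a3* differed by 0.22 ± 0.36 (adjusted p = 0.186, exact test) and *Col9a1* to *Col9a3* by -0.47 ± 0.58 (adjusted p = 0.0852, exact test), neither of which passed. Nor did *Col9a2* to *Col11a2* (-0.21 ± 0.48, adjusted p = 0.297, exact test, higher in Clu-led cells on 3 of 8 plates), *Col2a1* to *Col9a2* (-0.13 ± 0.34) or *Col2a1* to *Col9a3* (0.09 ± 0.38). The direction for *Col9a1* and *Col9a2* depended on how cells were summarised. When the median of single cells holding both chains was taken in place of the ratio of sums, *Col2a1* to *Col9a1* became -0.47, *Col9a2* to *Col11a1* 0.38 and *Col9a2* to *Col11a2* 0.85. On that summary *Col9a1* to *Col11a2* was -0.44 and did not pass, and *Col2a1* to *Col9a2* (-1.26) had the widest difference of the 15. By construction, that summary leaves out the Clu-led cells in which a chain of collagen IX had no UMI, which are described next.

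Detection followed the levels. *Col2a1* had a UMI in 414 of 414 Clu-led and 270 of 270 Cnmd-led cells. *Col9a1* was detected in 56.8% of Clu-led cells (exact 95% Clopper-Pearson interval 51.8 to 61.6) and 93.7% of Cnmd-led cells (90.1 to 96.3), and *Col9a2* in 49.3% (44.4 to 54.2) and 93.3% (89.7 to 96.0). *Col9a3* was detected in 70.5% and 97.0%, *Col11a1* in 90.6% and 98.1%, and *Col11a2* in 77.3% and 97.4%. Cnmd-led cells were deeper. After each cell was thinned to 796 UMIs, which left out 60 Clu-led and 8 Cnmd-led cells, *Col9a1* was found in 44.4% (39.1 to 49.7) and 88.9% (84.5 to 92.5), and *Col9a2* in 38.7% (33.6 to 44.0) and 82.1% (76.9 to 86.5). Thinned *Col11a1* was found in 79.9% (75.4 to 84.0) and 96.2% (93.1 to 98.2). The intervals, which cover counting error only, stayed apart for each of the 5 chains of collagens IX and XI. In Clu-led cells at this depth *Col9a1* and *Col9a2* averaged 0.622 and 0.528 UMIs per cell, so that an absent UMI does not show an absent transcript. *Lepr*-lineage cells had *Col11a1* in 8.1%, *Col2a1* in 3.1% and *Col9a1* in 0% of cells. Their median depth over the genes listed for both lineages was 505 UMIs.

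**Figure D3:**
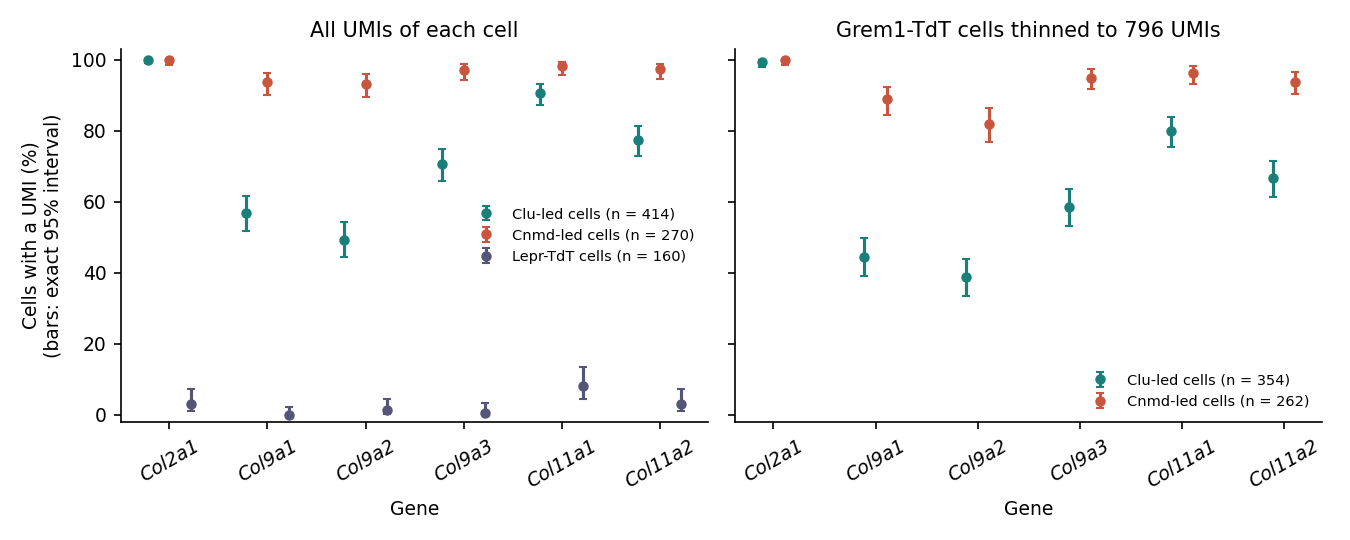
Percentage of cells with at least 1 UMI of each chain, with exact 95% intervals, for all UMIs (left, Clu-led, Cnmd-led and *Lepr-TdT* cells) and after thinning of *Grem1-TdT* cells to 796 UMIs (right). Clu-led cells lie below Cnmd-led cells for each chain but *Col2a1*, and *Lepr-TdT* cells lie at or under 8.1%.

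In single cells, *Col2a1* took a median of 1.13% of UMIs in Clu-led cells (10th to 90th percentile 0.485 to 2.96) and 6.93% in Cnmd-led cells (1.92 to 10.1). All 6 chains together took 1.87% and 9.85%. The distributions overlapped, and 42 of the 270 Cnmd-led cells (15.6%) lay under the 90th percentile of Clu-led cells.

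**Figure D4:**
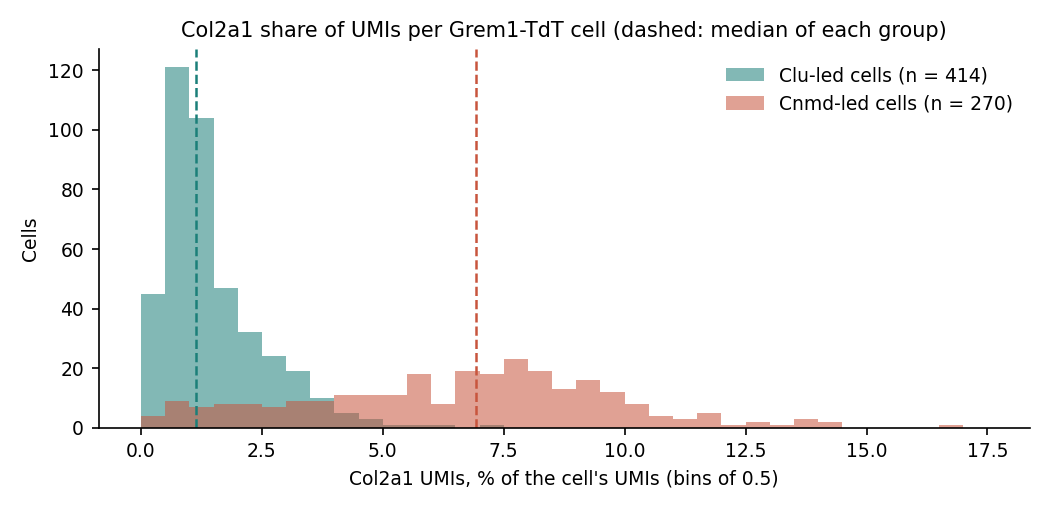
Number of Clu-led (n = 414) and Cnmd-led (n = 270) cells by the percentage of their UMIs that were *Col2a1*, in bins of 0.5, with dashed lines at the medians of 1.13% and 6.93%. Clu-led cells form a narrow peak at low values, and Cnmd-led cells spread from that peak to 16.9%.

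Within a plate, the 6 chains varied together from cell to cell in the Cnmd-led group. Pearson's r of log2(1 + UMIs per 10000), taken within each plate and averaged over the 8 plates, ranged from 0.53 (*Col9a2* with *Col11a1*) to 0.74 (*Col2a1* with *Col9a1*) over the 15 pairs, with a mean of 0.635 ± 0.131 (SD over plates, 26 to 40 cells each). In Clu-led cells the mean was 0.080 ± 0.039 (43 to 68 cells per plate). The highest Clu-led pair was *Col2a1* with *Col11a1* at 0.31, followed by *Col2a1* with *Col11a2* at 0.18, while *Col2a1* with *Col9a1* was 0.03 and with *Col9a2* -0.03. When the UMIs of each chain in Cnmd-led cells were thinned to the Clu-led mean, their mean r fell to 0.297 ± 0.090 and the pairs ranged from 0.20 to 0.49. This matched the mean UMIs of each chain and not their spread over cells. In cells thinned to the same total of UMIs the means were 0.442 and 0.055. Mean r in Cnmd-led cells was 0.585 with a margin of 5 UMIs from the split and 0.622 without osteoblast-marker cells. Among genes with at least 0.5 UMI per cell, *Cytl1* had the lowest r to *Col2a1* there (-0.46). Its mean was 200385 CPM in Clu-led and 26570 CPM in Cnmd-led sums. Whether a mix of cell types within the Cnmd-led group contributes to these r was not tested. These are descriptions across cells that share a plate and a depth, and no p is given.

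**Figure D5:**
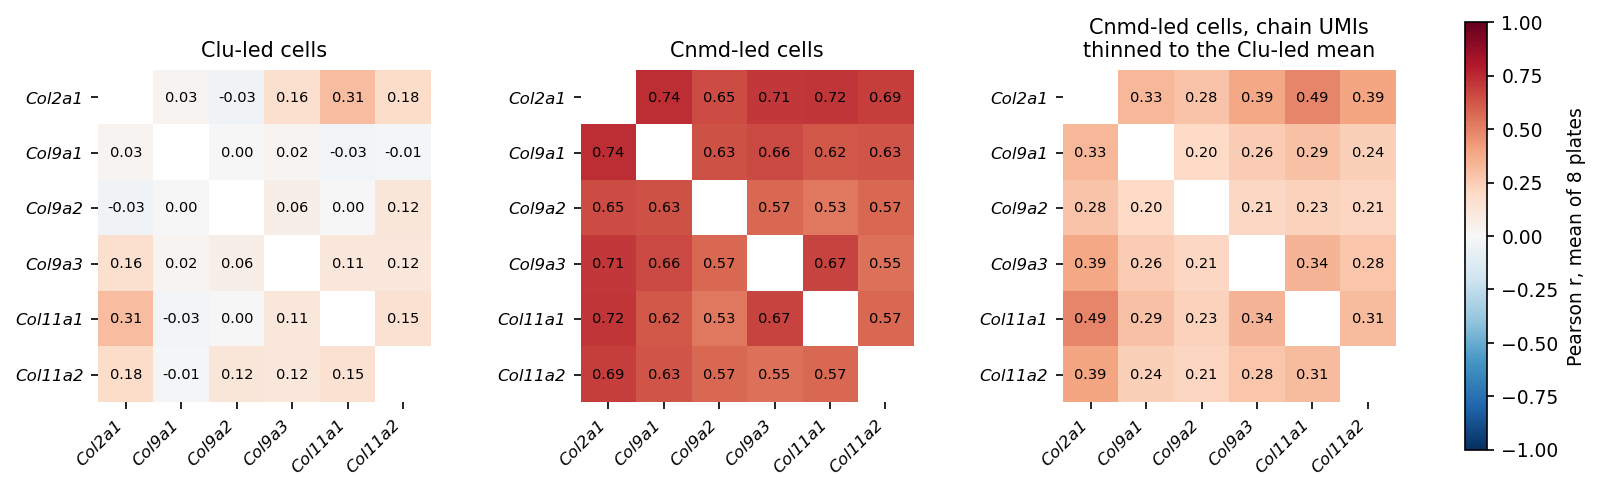
Pearson's r between chains across cells, taken within each plate and averaged over 8 plates, for Clu-led cells (left), Cnmd-led cells (middle) and Cnmd-led cells after thinning of each chain's UMIs to the Clu-led mean (right). The pairs range from -0.03 to 0.31, from 0.53 to 0.74 and from 0.20 to 0.49.

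The genes most like *Col2a1* across cells were found by the same measure among genes with at least 0.5 UMI per cell. In Cnmd-led cells, the 5 genes with the highest r to *Col2a1* of 767 were the other 5 chains, led by *Col9a1* (0.74), *Col11a1* (0.72) and *Col9a3* (0.71), against a median of 0.07 over all genes. Outside the 6, the genes most like their sum were *Cnmd* (0.58), *Col27a1* (0.58), which encodes a further fibrillar collagen of cartilage, *Gm37788* (0.58), *Comp* (0.57), a protein that binds collagen fibrils, and *Bgn* (0.52), the small proteoglycan biglycan. In Clu-led cells, the 5 genes most like *Col2a1* of 300 were *Bgn* (0.31), *Col11a1* (0.31), *Comp* (0.30), *Fmod* (0.26), which encodes the fibril-binding fibromodulin, and *Cnmd* (0.23), against a median of 0.00. There *Col11a2* was at rank 7, *Col9a3* at rank 14, *Col9a1* at rank 112 and *Col9a2* at rank 215. The genes most like the sum of the chains were *Bgn* (0.34), *Comp* (0.30), *Fmod* (0.29), *Col6a2* (0.22) and *Crispld1* (0.21). *Cnmd* was used to draw the groups.

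*Lepr*-lineage cells held almost none of these transcripts. The 5 chains with any UMI were lower by -8.83 (*Col2a1*, SE 0.96), -5.98 (*Col9a2*, SE 0.60), -7.11 (*Col9a3*, SE 0.68), -5.80 (*Col11a1*, SE 0.59) and -6.89 (*Col11a2*, SE 0.56) on the log2 scale. Their adjusted p ranged from 2.92e-07 to 7.02e-06 (edgeR's quasi-likelihood test over 2944 genes, 2 against 8 plates). *Col9a1* had no UMI in 160 cells, which allows up to 3 UMIs per plate, so it was at least 87.6-fold lower. All 6 were called, where 16.8% of the genes tested were called lower in the *Lepr* lineage. In *Grem1*-lineage plates *Col2a1* ranged from 43924 to 72834 CPM around 48130, while *Lepr* plates 1 and 2 had 225.7 and 0 CPM.

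The UMIs in *Lepr*-lineage cells were unevenly spread. Plate 1 had 17 UMIs of *Col2a1*, 5 of *Col9a2*, 5 of *Col9a3*, 16 of *Col11a1* and 4 of *Col11a2*, and plate 2 had 3 of *Col11a1* and 2 of *Col11a2* and none of the others. Of 160 cells, 20 had any chain and 2, both on plate 1, had more than 1. These 2 cells held 6 and 8 *Col2a1* UMIs and all UMIs of *Col9a2* and *Col9a3*. They also held 151 and 54 UMIs of *Cytl1*, the cytokine-like chondrocyte gene, whose median in the other *Lepr*-lineage cells was 0, and 5 and 9 UMIs of *Cxcl12*, whose median there was 17. Without them *Col2a1* had 3 UMIs, *Col9a2* and *Col9a3* none, and *Col11a1* differed from the *Grem1* lineage by -6.15 and *Col11a2* by -7.08. *Col11a1* or *Col11a2* was found without *Col2a1* in 15 cells, and *Col11a1* in 13 cells in all (8.1%, exact interval 4.4 to 13.5).

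Other genes of the fibril's making and surroundings were taken from lists chosen by function. Genes after Gm5763 in alphabetical order, among them *Sox9*, *Serpinh1* and *P4ha1*, were not analysed in the *Grem1* lineage, so the lists are incomplete. Of 8 matrix partners of cartilage fibrils tested, 3 were called higher in Clu-led cells and 3 lower, where 19.7% and 21.6% of all genes tested were called, with a median difference of -0.17. *Epyc* was lower by 4.05 log2 units (81.6 and 1330 CPM, adjusted p = 4.23e-09, edgeR) and *Acan* had a difference of -0.999 (adjusted p = 0.000538). *Dcn*, the small proteoglycan decorin, differed by 3.68 (27949 and 2174 CPM, adjusted p = 3.02e-12, edgeR) and *Chad*, the cell-binding protein chondroadherin, by 1.75 (adjusted p = 6.85e-06). *Comp* was also called higher (0.57), though not with no filter on low counts (0.42, adjusted p = 0.239, edgeR), and *Bgn* lower (-0.78), though not on plates 1, 2 and 4 alone (-0.41, adjusted p = 0.212, edgeR). Against the *Lepr* lineage, 7 of the 8 were called, all lower in *Lepr* cells, against 16.8% of all genes tested. *Epyc* had no UMI in *Lepr*-lineage cells, and *Chad* (-7.29), *Acan* (-7.27) and *Fmod* (-6.51) followed. Their 22, 5 and 7 UMIs in *Lepr*-lineage cells were all on plate 1, and 8, 1 and 2 were left without the 2 cells with several chains, so these sizes are imprecise. Without *Lepr* plate 2, which held none, the differences were -6.36, -6.37 and -5.61.

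Of the other fibrillar collagens, 4 of 8 could be tested between the cell groups. Of these, 2 were called higher in Clu-led cells and 1 lower, where 19.7% and 21.6% of all genes tested were called. *Col27a1* differed in the direction of the 6 chains by -1.56 (1148 and 3380 CPM, adjusted p = 8.51e-05, edgeR). *Col5a2*, a chain of the collagen V that nucleates collagen I fibrils, was higher in Clu-led cells by 2.47 (503 and 88.9 CPM, adjusted p = 6.89e-06). *Col1a2*, a chain of collagen I, was called higher by 1.92 (adjusted p = 0.0268, edgeR) but not by DESeq2 (0.88, adjusted p = 0.157), with the plate as a replicate block (1.21, adjusted p = 0.0594) or without plate 7 (0.93, adjusted p = 0.213) or plate 5 (1.69, adjusted p = 0.081). Osteoblast markers, which include *Col1a2*, summed to between 1368 and 78370 CPM over the Clu-led plates and to between 989 and 25360 CPM over the Cnmd-led plates, and without the 19 osteoblast-marker cells the difference was 0.93 and was called. Against the *Lepr* lineage, 2 of 6 tested were called, *Col27a1* (-5.09) and *Col5a2* (-1.66), both lower in *Lepr* cells. Of all genes tested, 16.8% were called in that direction. The call on *Col5a2* was lost without either *Lepr* plate.

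Of 5 genes tested for the folding, secretion and processing of collagen, 2 were called lower in Clu-led cells, against 21.6% of all genes tested. These were *Fkbp10* (-0.77, adjusted p = 0.00223, edgeR) and *Crtap* (-0.75, adjusted p = 0.0257, edgeR), both of which act in procollagen folding and modification. The median difference of the 5 was -0.08. The call on *Fkbp10* was lost in thinned cells (-0.48, adjusted p = 0.14, edgeR) and on plates 1, 2 and 4 alone (-0.74, adjusted p = 0.0563). The call on *Crtap* was lost without plate 1, 5 or 8 (-0.65, -0.64 and -0.71), and on either set of plates alone, 1, 2 and 4 (-0.49) or 5 to 9 (-0.86). Against the *Lepr* lineage, 5 of 8 were called lower in *Lepr* cells and 1 higher, against 16.8% and 12.2% of all genes tested. *Colgalt2*, a collagen galactosyltransferase, had no UMI in *Lepr*-lineage cells, *Fkbp14* differed by -2.76 (-2.28 and not called without *Lepr* plate 2) and *Crtap* by -2.50, and *Adamts2*, which removes the amino-terminal propeptide of fibrillar procollagens, was higher by 4.96 (661 and 21.2 CPM). No chondrocyte transcription factor and no collagen receptor of the lists had enough counts for a test between the cell groups. Between the lineages, 1 of 2 factors tested, *Foxa3*, was called, with no UMI in *Lepr*-lineage cells. Of 3 genes listed as collagen receptors (*Ddr1*, *Ddr2* and *Cd44*), 0 were called by edgeR or by DESeq2. At an unadjusted p under 0.05 there was 1, *Cd44* (1.85, adjusted p = 0.0524, edgeR), which passed under 9 of the 19 alternatives tried but was -0.06 without *Lepr* plate 1. Plate 1 held 45 of its UMIs and plate 2 held 7.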

How the data were processed

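UMI counts per gene and cell, as deposited by the authors without normalisation, were analysed for 8 *Grem1-TdT* and 2 *Lepr-TdT* plates. Per the labels, the submitters' processing notes name UMI-tools, STAR, featureCounts, SAMtools, Seurat and mm10, with no versions. The *Grem1-TdT* table ends at 29183 complete genes (1 incomplete row left out) and only these were used. Samples were assigned by label, and cells with fewer than 350 detected genes, counted over all genes of each lineage's own table, were left out. No doublet caller was run. UMIs were summed per plate and lineage or cell group.

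Sums were tested with edgeR 4.0.16 in R 4.3.3 (filterByExpr, TMM, quasi-likelihood test, Benjamini-Hochberg adjustment), with DESeq2 1.42.0 as an alternative. CPM were computed over the UMIs of the tested genes after TMM unless stated otherwise. Standard errors are the log2 fold change over the square root of F and are approximate. Chain ratios, detection and correlations used Python 3.11.15 with scipy 1.17.1. A count of 0 was given a floor of 3 UMIs per plate. Intervals are at 95%. Sums held from 51229 to 179071 UMIs, and counts of a few UMIs, as in *Lepr-TdT* cells, are imprecise.

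The members, lists and groups were chosen with earlier results of these data known. Named genes are the 6 chains, the 5 genes most like *Col2a1* and most like the sum of the chains in each cell group, and up to 4 called genes with the largest change per list and comparison. *Cytl1*, *Cxcl12*, *Comp*, *Bgn*, *Cd44*, *Col10a1* and *Fgfr3* were also named outside this rule where a statement turned on them. Deviations of the 2 sums of a plate from their group means correlated at 0.290 on average across 1075 genes (0.173 to 0.441, above 0.1 on 8 of 8 plates) and at -0.041 for different plates, so the cell groups are paired by plate. The edgeR values given between the cell groups come from the fit without this pairing unless stated otherwise. With the plate as a block the differences of the chains ran from -2.55 (*Col9a1*, SE 0.20) to -1.27 (*Col11a1*, SE 0.12). The lineages share plate numbers only. edgeR was also run on simulated data with 200 changed genes and no pairing by plate, and no result here rests on that run.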

Additional observations from a re-analysis of the deposited data

Results flagged for a closer look

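In a group of 8 plates, a plate was looked at again when its gap to the nearest other plate was a large part of the whole range (Dixon's test at 95%, above 0.526 of the range). Of 48 sets of 8 values, 5 were picked out, where chance gives about 1 in 20. On plate 9, Clu-led cells had 34984 CPM of *Col2a1* against 14205 to 21816 on the other plates, and 2773 CPM of *Col9a1* against 530.1 to 1088. That sum also had the highest Clu-led values of *Col9a3*, *Col11a1* and *Col11a2*, which were not picked out, but not of *Col9a2*. Its *Cnmd*, at 10301 CPM, was the highest of the Clu-led sums as well. The Cnmd-led log2 ratio of *Col2a1* to *Col9a2* was 4.30 on plate 8 against 4.54 to 4.68 elsewhere. The Clu-led log2 ratio of *Col2a1* to *Col9a3* was 4.22 on plate 2 against 3.11 to 3.62. The Cnmd-led log2 ratio of *Col2a1* to *Col11a1* was 3.69 on plate 4 against 2.67 to 3.13.

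The 84 *Grem1-TdT* wells with too few detected genes entered no comparison, and held 1370 UMIs of the 6 chains, 3.44% of their UMIs. *Col2a1* was found in all 84 and *Col9a1* in 31 of them.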

How the results depend on the processing

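All 6 chains stayed lower in Clu-led cells and passed the test under each alternative fitted, with differences from -2.75 to -1.10 in fitted models and -2.72 to -1.59 on plain CPM, an alternative added after the data were seen, as were those without osteoblast-marker cells, without 2 *Lepr* cells and with chain UMIs thinned. With the plate as a replicate block, 515 genes in place of 444 were called between the groups and no call on a chain changed. The count was 710 with no filter, 177 in thinned cells, 239 on plates 1, 2 and 4 alone, and 385 to 441 with each plate left out. Between the lineages 853 genes were called, 529 to 850 with each plate left out (529 without *Lepr* plate 2), and 489 with and 451 without the replicate block on plates 1 and 2 alone. Lineage differences of the chains with over 3 *Lepr* UMIs kept their direction and call, from -9.17 to -5.08. Others are not given as a fold.

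Ratio differences were less stable. From medians of cells with both chains, *Col2a1* to *Col9a1* was -0.47, *Col9a2* to *Col11a1* 0.38 and *Col9a2* to *Col11a2* 0.85, each turned in direction. On the same summary *Col2a1* to *Col9a2* (-1.26) and *Col9a2* to *Col9a3* (1.01) passed, and *Col9a1* to *Col11a2* (-0.44), *Col9a3* to *Col11a2* (-0.14) and *Col11a1* to *Col11a2* (0.28) did not. *Col9a1* to *Col11a1* (-0.42) kept its call. This summary drops cells without a UMI of either chain. With a margin of 5 UMIs, *Col9a3* to *Col11a2* (-0.41) and *Col11a1* to *Col11a2* (0.40) did not pass, nor did the former without osteoblast-marker cells (-0.34), and the cause was not tested. With each plate left out, which leaves 7 and a smallest possible p of 0.0156, *Col2a1* to *Col9a1* ranged from 0.48 to 0.65 (called only without plate 9), *Col9a1* to *Col9a2* from -0.83 to -0.59 (the same), *Col9a3* to *Col11a2* from -0.52 to -0.35 (called only without plate 6), *Col11a1* to *Col11a2* from 0.34 to 0.46 (called only without plate 9) and *Col9a1* to *Col9a3* from -0.61 to -0.34 (called only without plate 9).

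Thinning lowered detection, by its construction. In Clu-led cells it was 44.4% for *Col9a1*, 38.7% for *Col9a2*, 58.5% for *Col9a3*, 79.9% for *Col11a1* and 66.7% for *Col11a2*, and in Cnmd-led cells 88.9% for *Col9a1*, 82.1% for *Col9a2* and 93.9% for *Col11a2*. The mean r was 0.129 in Clu-led cells without centring on the plate, and 0.442 and 0.297 in Cnmd-led cells thinned in total or per chain.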
